A study of Homo sapiens with 6 samples.

Results

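PRMT5 shRNA 1, the hairpin that left the least PRMT5 signal in this series, was compared with a non-targeting control hairpin in VCaP cells across all genes. VCaP, an established line from a human prostate cancer, has a luminal character and carries the TMPRSS2-ERG gene fusion. The comparison held 4 of the 6 arrays of the series, 2 titled NTC shRNA (called control arrays 1 and 2) and 2 titled PRMT5 shRNA 1 (called knockdown arrays 1 and 2), chosen by those titles. The other 2 arrays held a second hairpin, PRMT5 shRNA 2. They entered the choice of the genes tested and of their probe sets, the shared estimate of spread and the test of differences between hairpins. The cells of every sample, controls included, were grown in medium with serum. They received 100 ng/ml doxycycline, the drug that switches on inducible hairpins, for 3 days. The measured contrast was therefore between hairpin sequences in doxycycline-treated cells, and no array of untreated cells was used here. The labels do not say whether replicates came from separate cultures or whether the cells were a clone or a pool, so the spread behind each p-value is that between these samples and may be technical only.

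PRMT5 is the main enzyme that places symmetric dimethyl marks on arginines. It works in a complex with WDR77, and the adaptors CLNS1A, RIOK1 and COPRS bring it to different substrates. Its substrates include Sm proteins of the spliceosome, the tails of histones H3, H4 and H2A, and transcription factors, and its loss is known to disturb splicing and the expression of many genes. In prostate cancer cells with the ERG fusion, a link of PRMT5 to androgen-responsive genes has been studied. Hairpins lower the messenger RNA, and the array reads RNA levels only, not protein or methylation.

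The values were scanner intensities of probe sets on a linear scale. A gene was tested on its brightest probe set that lay at or above the array's median in 2 or more of the 6 arrays, which gave 12413 genes. Differences are on the log2(intensity + 16) scale, PRMT5 shRNA 1 minus NTC, with the SE (standard error) from limma, and the added 16 understates the differences of dim genes. A gene was called, and is said to have risen or fallen, at a Benjamini-Hochberg adjusted p under 0.05. Array medians were 14.8 to 16.4, arrays of the same group correlated at 0.997, and control and knockdown arrays at 0.976 to 0.977. GAPDH probe sets at the 3' and 5' ends, whose ratio is a sign of RNA quality, gave ratios of 1.26 and 1.33 in the control and 1.21 and 1.23 in the knockdown arrays. That of ACTB was lower in both knockdown arrays, at 3.49 and 3.88 against 4.58 and 4.88. The part of this shift in the results was not tested. The summed intensity of 6 luminal markers (KRT8, KRT18, KRT19, HOXB13, KLK3 and TMPRSS2, all 6 above the filter) was 4514.2 to 4847.2 in control and 6411.1 to 6608.4 in knockdown arrays. KLK3 carried most of that rise, since the sum without it was 3327.8 to 3678.3 and 3823.9 to 3942.8, and HOXB13 and TMPRSS2 fell (differences -0.47 ± 0.077 and -0.28 ± 0.085). None of 4 endothelial and none of 4 immune markers passed the filter, and their sums stayed at 15.7 to 24.0 and 18.0 to 22.0 over both groups. ERG, whose overexpression marks this line, was read at 1367 and 1446 in control and 1005 and 1125 in knockdown arrays. In bulk RNA of this kind, fewer cells of a type and less RNA per cell cannot be told apart.

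PRMT5 itself was measured first, as the check on the labels. Its intensity was 809.8 and 880.5 in the control arrays and 136 and 134 in the knockdown arrays, so 15.9% of the control mean remained. Both knockdown arrays lay far below both control arrays and close to each other. The difference was -2.51 ± 0.08 (SE), with an adjusted p of 5.5e-09 (limma), and the other PRMT5 probe sets left 16.7% and 15.3% of the control signal. PRMT5 shRNA 2 read 291 and 321, so PRMT5 was lower with PRMT5 shRNA 1 than with PRMT5 shRNA 2 by a log2 difference of -1.09 ± 0.08 (SE, adjusted p = 8.0e-05).

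Of the 12413 genes, 4879 (39.3%) were called, 2008 higher (16.2%) and 2871 lower (23.1%). Most differences were small, with a median size of 0.40 on the log2 scale among called genes, and the median over all genes was -0.036. At least 2-fold changes were called for 318 genes, 187 higher and 131 lower, so genes that fell were more numerous while large changes were more often increases. The knockdown arrays did not overlap the control arrays in 8974 genes (72.3%), which means that a lack of overlap alone is common here. The called genes numbered 3196 without control array 1, 3329 without control array 2, 3525 without knockdown array 1 and 3180 without knockdown array 2. All genes named below as risen or fallen had both knockdown arrays above, or both below, the pair of control arrays. The genes with the largest differences were picked under that condition.

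The largest increases included membrane and signalling genes. BASP1, a membrane-bound protein known from neurons and as a corepressor with WT1, was read at 27.9 and 29.0 in control arrays and 532 and 514.5 in knockdown arrays (difference 3.60 ± 0.088 (SE), adjusted p = 1.4e-09). TGFB2, which encodes a secreted TGF-beta ligand, rose from 44.9 and 39.0 to 607 and 586 (difference 3.40 ± 0.089, adjusted p = 1.4e-09). On the probe sets read, both genes went from faint to clearly expressed. The other BASP1 probe set was under the filter, at 1.3 and 1.1 in control and 1.4 and 3.2 in knockdown arrays. All 3 further TGFB2 probe sets that passed the filter were also called higher. XK, a membrane protein of red cells that is related to lipid scramblases, rose from 58.9 and 54.1 to 748.5 and 679 (3.33 ± 0.079). SPRY4, a feedback inhibitor of receptor tyrosine kinase signalling, rose from 31.7 and 33.7 to 403 and 389.9 (3.08 ± 0.10). The transcript SPRY4-IT1 (3.39 ± 0.13) lies within the SPRY4 gene, and the array may not separate the pair. SLC15A2, a transporter of small peptides, rose from 112 and 98.3 to 822 and 792 (2.77 ± 0.078). LPAR3, a receptor for lysophosphatidic acid, rose from 21.1 and 22.3 to 229 and 191 (2.58 ± 0.13).

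The other 5 genes among the 12 largest increases were LAMA2, RELN, TGM4, VSTM2A and KRT80. LAMA2, the laminin alpha 2 chain, went from 3.0 and 3.1, under the array medians, to 113 and 119 (2.79 ± 0.12). RELN, a large secreted glycoprotein known from cortical development, rose from 33.3 and 26.7 to 268 and 321 (2.75 ± 0.20). TGM4, the transglutaminase secreted by prostate luminal cells, rose from 18.8 and 13.9 to 193 and 201 (2.72 ± 0.11). VSTM2A, a secreted immunoglobulin-domain protein, rose from 13.3 and 14.0 to 167 and 168 (2.63 ± 0.093). KRT80, an epithelial keratin, rose from 14.8 and 10.7 to 149.7 and 161 (2.58 ± 0.11). LAMA2, TGM4, VSTM2A and KRT80 lay near or under the array medians in control cells, so they passed the filter mainly through arrays of PRMT5 knockdown cells, and the size of their increase depends on the pseudocount. LAMA2 gave 4.85 with a pseudocount of 1 and 1.42 with 64, and KRT80 3.52 and 1.52.

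The largest decreases were led by genes that fell to the background. ART3, a member of the ADP-ribosyltransferase family, was read at 264.5 and 258 in control arrays and 12.1 and 9.9 in knockdown arrays (difference -3.36 ± 0.10 (SE), adjusted p = 5.4e-09). RFX6, a transcription factor of pancreatic and gut endocrine cells, fell from 245 and 224 to 11.5 and 9.4 (-3.24 ± 0.14). TCIM, a small regulator of Wnt and NF-kappaB signalling, fell from 158 and 159 to 7.9 and 10.5 (-2.79 ± 0.12). All 3 ended under the array medians, where a level is poorly measured. CXCL11, an interferon-induced chemokine that was bright in control cells, fell from 916 and 889.8 to 84.7 and 82.2 (-3.21 ± 0.081). HDAC9, a deacetylase of class IIa, fell from 289 and 285 to 25.4 and 26.1 (-2.86 ± 0.10). ESRRG, an orphan nuclear receptor related to oestrogen receptors, fell from 178 and 189 to 29.2 and 20.0 (-2.31 ± 0.12). CXCL11, HDAC9 and ESRRG each kept some signal above the array medians. GLRB, the beta subunit of the glycine receptor, fell from 168 and 141 to 15.8 and 17.2 (-2.39 ± 0.12). IL1RAPL1, a synaptic member of the interleukin 1 receptor family, fell from 550.3 and 567 to 65.8 and 51.1 (-2.95 ± 0.11). NPY6R, a pseudogene of the neuropeptide Y receptor family, fell from 1181 and 1220 to 154 and 139 (-2.91 ± 0.075). The remaining genes of the 12 lowest besides PRMT5 were SAMD5 (-2.91 ± 0.093) and DEPDC7 (-2.29 ± 0.12). Over these 24 genes the largest adjusted p was 2.4e-06 (limma), and for 11 of the 24 a pseudocount of 1 or 64 moved the difference by more than 1.5 times.

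**Figure D1:**
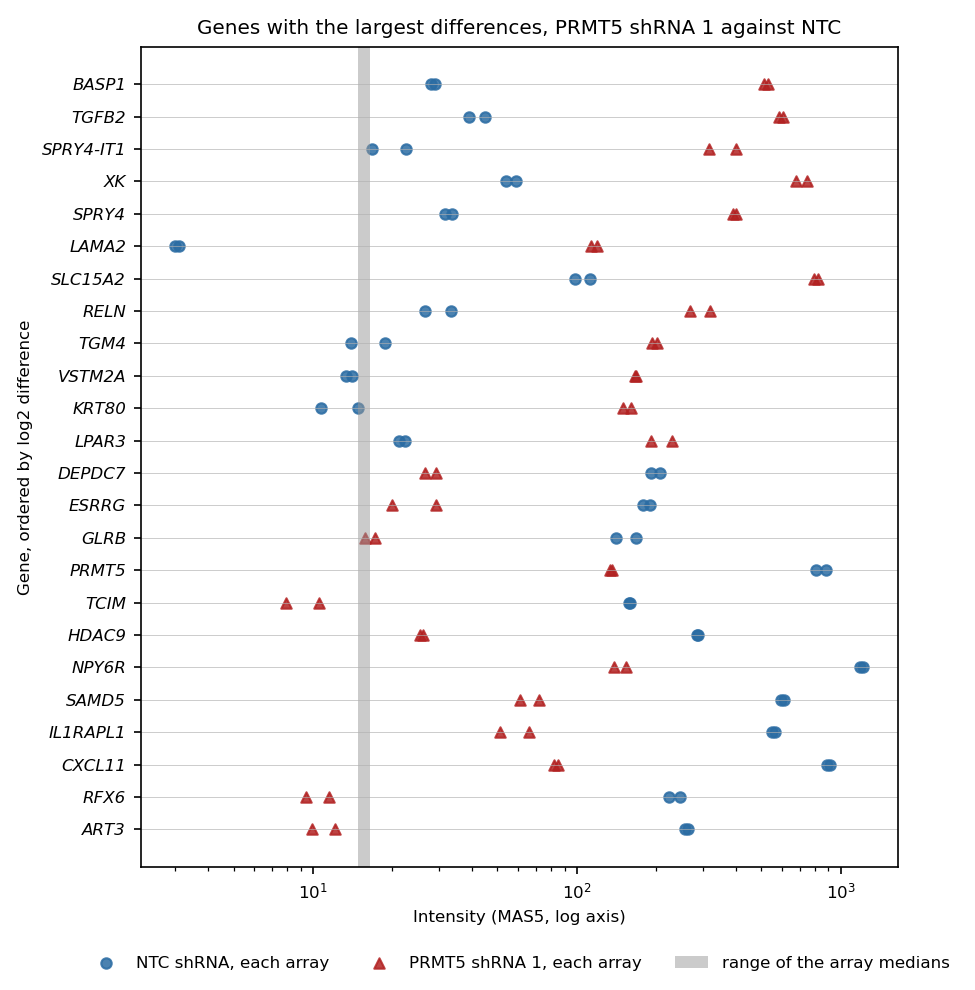
Intensity (MAS5, log axis) of the 12 genes with the highest and the 12 with the lowest log2 difference in each array, circles for NTC shRNA and triangles for PRMT5 shRNA 1, with a grey band for the array medians of 14.8 to 16.4. The groups are apart in every gene, as the choice of these genes required. ART3, RFX6 and TCIM in knockdown cells and LAMA2, TGM4, VSTM2A and KRT80 in control cells lie within, near or below the band.

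Genes that were bright in control cells, where the pseudocount matters least, were taken next. Of the 4128 genes with a mean control intensity of at least 500, 677 rose and 914 fell, and 9 rose and 24 fell by at least 2-fold. Choosing by control intensity keeps genes that fell from a bright level and leaves out those that became bright, and the direction of this split rests on it. By the mean over the 4 arrays, an alternative chosen after seeing the data, the 4088 genes of at least 500 held 23 increases and 11 decreases of at least 2-fold. Among the genes bright in control cells, the highest was CAPRIN2, an RNA-binding protein known from Wnt signalling, which went from 624 and 609 to 1796 and 1845 (1.54 ± 0.056 (SE), adjusted p = 1.2e-08). ID3, an inhibitor of basic helix-loop-helix factors, went from 630.5 and 626 to 1747 and 1837 (1.49 ± 0.078). IGFBP3, which binds insulin-like growth factors, went from 757 and 751 to 1882 and 1935 (1.32 ± 0.053). KLK3, which encodes prostate-specific antigen, went from 1186 and 1169 to 2587 and 2666 (1.15 ± 0.056). FAM135A (1.17 ± 0.066) and DAPK1, a calcium-regulated kinase linked to cell death (1.04 ± 0.054), completed the 6 highest. The other 3 genes bright in control cells that rose at least 2-fold were DDIT4 (1.03 ± 0.07), MTERF4 (1.02 ± 0.10) and VEGFA (1.01 ± 0.10).

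Growth factors and neuronal adhesion genes stood among the bright decreases. After CXCL11, IL1RAPL1, SAMD5, NPY6R and PRMT5, the next lowest was PDGFC, a platelet-derived growth factor, which fell from 571 and 561 to 96.5 and 111 (-2.28 ± 0.10 (SE), adjusted p = 5.1e-08). The other 18 bright genes that fell at least 2-fold are named after their values were seen. HGF, the ligand of the MET receptor, fell from 1087 and 959 to 309 and 343.5 (-1.60 ± 0.10). PRKCA, a conventional protein kinase C, fell from 623 and 584 to 132 and 137 (-2.04 ± 0.10). Both knockdown arrays of each gene lay far below both control arrays. GRIA2, an AMPA receptor subunit (-2.26 ± 0.11), CNTNAP2 (-1.78 ± 0.17) and NRCAM (-1.05 ± 0.075), adhesion proteins of neurons, fell as well. So did GDA, guanine deaminase (-1.57 ± 0.064), ADGRG6, an adhesion G protein-coupled receptor (-1.53 ± 0.091), PLCB4, a phospholipase C (-1.01 ± 0.065), and ST6GAL1, a sialyltransferase (-1.27 ± 0.088). PROCR, the protein C receptor (-1.27 ± 0.075), MGP, matrix Gla protein (-1.08 ± 0.065), ETS2, a transcription factor of the ETS family (-1.24 ± 0.073), and the noncoding transcript LINC00294 (-1.20 ± 0.062) were the others outside the gene lists. SMAD7, GDF11, FAS, UGT2B15 and SPOCK1 belonged to lists and are described with them.

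**Figure D2:**
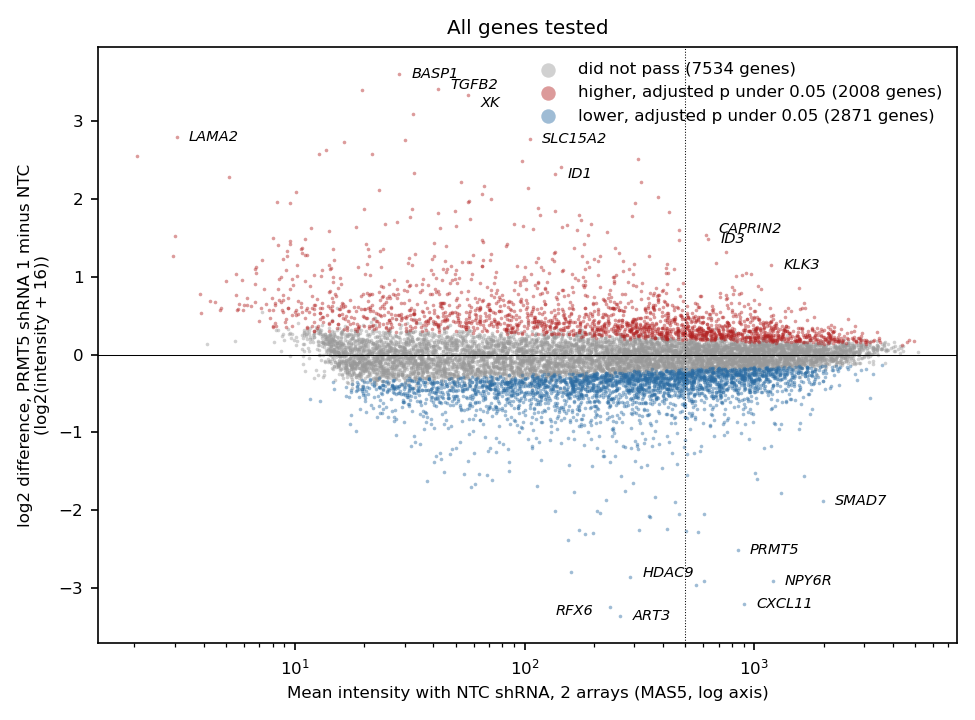
log2 difference of PRMT5 shRNA 1 minus NTC against the mean control intensity (log axis) for the 12413 genes tested, 2008 called higher, 2871 called lower and 7534 that did not pass, with a dotted line at an intensity of 500. Increases of more than 2 on the log2 scale lie to the left of the line, while CXCL11, NPY6R and PRMT5 lie below -2 to its right.

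Lists of genes with a shared role were then read by their counts of called members, beside the 16.2% of all tested genes that rose and the 23.1% that fell. The 33 lists were chosen with earlier results of these data known, and no list was tested as a set. A list's median difference is given beside the -0.036 over all genes. Fits that lack a control or knockdown array called fewer genes over all genes too. List counts from those fits are therefore not comparable with these shares.

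**Figure D3:**
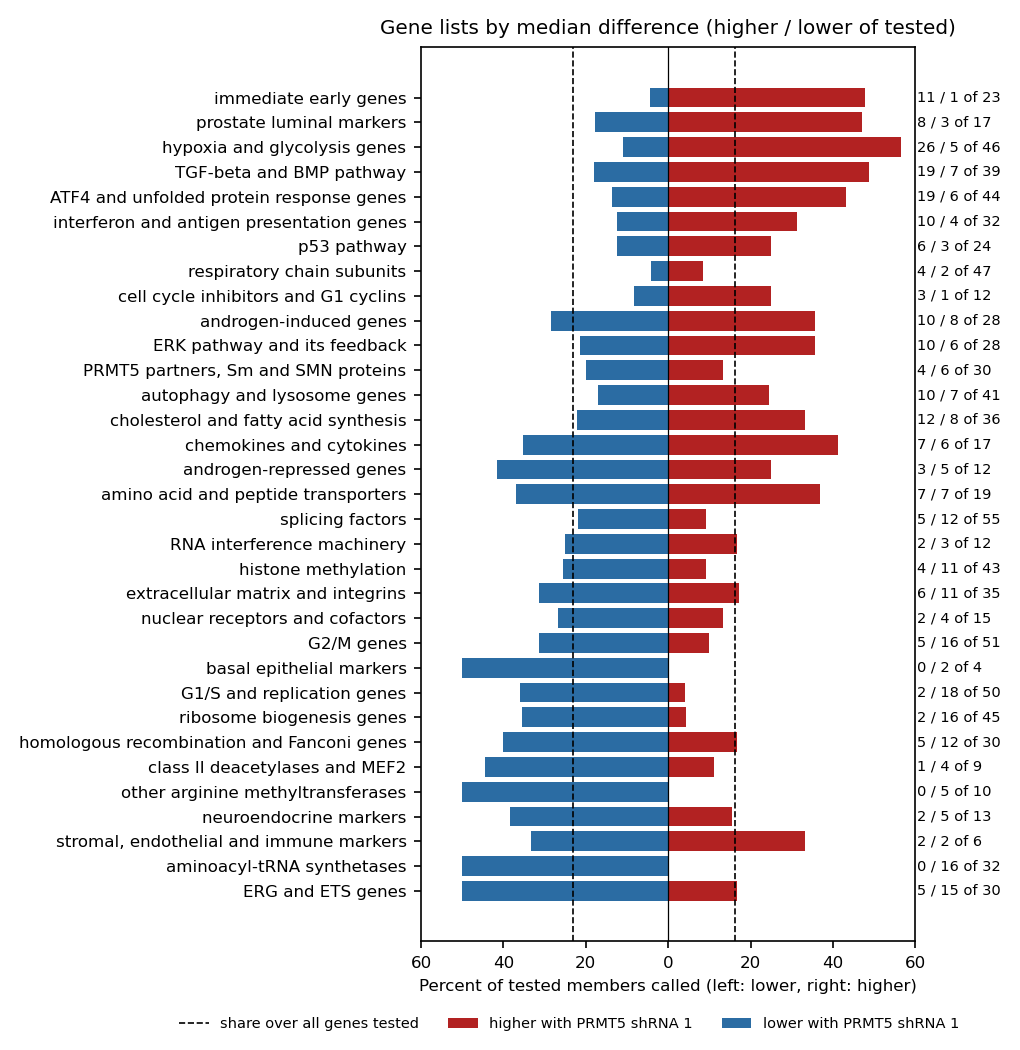
Percent of tested members of each of the 33 gene lists called higher (right) or lower (left) with PRMT5 shRNA 1, ordered by median difference, with dashed lines at the shares over all genes tested and counts at the right edge. Hypoxia, TGF-beta and BMP, immediate early and luminal genes reach furthest to the right, while aminoacyl-tRNA synthetases, ERG and ETS genes, other arginine methyltransferases and basal markers extend to 50% on the left.

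Of 30 tested members of the list of PRMT5 partners, Sm and SMN proteins, 4 rose and 6 fell (median 0.032). WDR77, the obligate partner of PRMT5, was at 1216 and 1242 in control and 1094 and 1125 in knockdown arrays and did not pass (difference -0.15 ± 0.058, adjusted p = 0.067). CLNS1A, the adaptor to Sm proteins, did not pass either (0.032 ± 0.057). The adaptors RIOK1 (-0.52 ± 0.10) and COPRS (-0.39 ± 0.07) fell. GEMIN4, of the SMN complex that loads Sm proteins onto small nuclear RNAs, fell by 0.62 from 529.7 and 542 to 359 and 327, and LSM11, a U7 particle protein of histone RNA processing, by 0.67. The increases were small, with LSM7 at 0.29, LSM8 at 0.26, SNRPG at 0.21 and LSM5 at 0.19. For LSM8 the other 3 kept probe sets were all called lower, and for LSM5 the direction turned without the probe sets that can match several transcripts, so these members have no settled direction. LSM5 did not pass with any 1 of the 4 arrays left out, and LSM7 and SNRPG did not pass without control array 1, knockdown array 1 or knockdown array 2, and LSM8 did not pass without control array 1 or knockdown array 2. Other settings ended the call for LSM5 with the mean over probe sets, and for LSM5 without the probe sets that can match several transcripts, and for LSM5 with no intensity trend. Here the number of higher members was 0 without control array 1 or without knockdown array 2 and 1 without knockdown array 1.

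Other arginine methyltransferases fell or did not pass. Of 10 tested, 0 rose and 5 fell (median -0.21). The 10 include 2 members listed as demethylase or other, and both fell. PRMT1, the main asymmetric methyltransferase, was at 992 and 1004 in control and 971 and 999 in knockdown arrays (-0.018 ± 0.057) and did not pass. PRMT2 (-0.62 ± 0.13), PRMT9, the other enzyme known to make symmetric marks (-0.33 ± 0.11), PRMT3 (-0.31 ± 0.089) and the mitochondrial methyltransferase NDUFAF7 (-0.37 ± 0.10) fell. On leaving out arrays, PRMT9 did not pass without control array 2, knockdown array 1 or knockdown array 2, and PRMT3 did not pass without control array 1, knockdown array 1 or knockdown array 2, and NDUFAF7 did not pass without control array 1 or knockdown array 1. The call was lost as well for PRMT2 with the mean over probe sets, and for PRMT9 with no filter on dim probe sets. With fewer arrays the number of lower members was 2 without control array 1 or without knockdown array 2 and 3 without control array 2 and 1 without knockdown array 1.

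The share of splicing factors that fell lay near that of all genes. Of 55 tested, 5 rose and 12 fell (median -0.037), and the decreases were mainly of core spliceosome genes, where 7 of 19 fell and 0 rose. SF3A3, of the U2 particle, fell from 286 and 294 to 167 and 165 (-0.75 ± 0.085), and PRPF8, the central protein of the U5 particle, fell by 0.46. Regulators known from particular tissues moved in both directions. QKI, an RNA-binding protein of glia and muscle, rose from 10.7 and 9.6, under the array medians, to 97.1 and 93.5 (2.09 ± 0.11). It passed the filter through arrays of PRMT5 knockdown cells, and its difference was 3.11 with a pseudocount of 1 and 1.10 with 64. NOVA1, a neuronal regulator, fell from 46.6 and 39.3 to 7.2 and 9.7 (-1.27 ± 0.12). MBNL2 (0.61 ± 0.082) and HNRNPL (0.61 ± 0.12) rose, RBFOX2 fell (-0.46 ± 0.06), and PTBP2 rose by 0.24. The array reads gene totals, so changes in exon use were not analysed here. After removal of an array, PTBP2 did not pass without control array 1, control array 2 or knockdown array 2. Under other settings the call was lost for RBFOX2 without the probe sets that can match several transcripts, and for PTBP2 with no filter on dim probe sets, and for PTBP2 with no intensity trend. Among these members the number of higher members was 3 without control array 1 or without control array 2 or without knockdown array 2, and the number of lower members was 7 without control array 1 or without control array 2 and 6 without knockdown array 2.

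The androgen response moved in both directions. Of 28 tested androgen-induced genes, 10 rose and 8 fell (median 0.046). EAF2, an elongation factor partner, had the largest increase, from 97.5 and 109.7 to 491 and 526 (2.13 ± 0.086). PTGER4, a prostaglandin receptor, rose from 121 and 112 to 442 and 438 (1.79 ± 0.079), STEAP4, a metalloreductase, from 281 and 253 to 608 and 655 (1.19 ± 0.075), and KLK3 by 1.15, as given above. SPOCK1, a secreted proteoglycan, fell from 766 and 715 to 367 and 342.5 (-1.03 ± 0.071), and MAF, a leucine zipper factor, from 107.5 and 120.1 to 63.2 and 59.7 (-0.74 ± 0.11). CAMKK2, a kinase of calcium and AMPK signalling, fell by 0.58 and IQGAP2, a scaffold protein, by 0.34. The canonical targets TMPRSS2 (1108 and 1341 in control, 966 and 1041 in knockdown arrays, -0.28 ± 0.085) and FKBP5 (2041 and 2036, 1795 and 1877, -0.15 ± 0.053) fell slightly. KLK3 and FKBP5, read in the same arrays, thus moved apart. With an array removed, FKBP5 did not pass with any 1 of the 4 arrays left out, and TMPRSS2 did not pass without control array 2 or knockdown array 1. Calls were also lost for TMPRSS2 and FKBP5 with no filter on dim probe sets, and for TMPRSS2 and FKBP5 with no intensity trend, and for FKBP5 with the mean over probe sets. Here the number of lower members was 5 without control array 2 or without knockdown array 1.

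Among genes that androgen represses, and among nuclear receptors with their cofactors, the largest changes were decreases. Of 12 tested androgen-repressed genes, 3 rose and 5 fell (median 0.0006). All 3 UGT2B enzymes of the list, which inactivate androgens by glucuronidation, fell. UGT2B28 went from 206 and 208.5 to 36.0 and 43.0 (-2.01 ± 0.12), UGT2B15 from 507 and 511 to 168 and 158 (-1.55 ± 0.081) and UGT2B17 from 123 and 112 to 33.3 and 39.5 (-1.35 ± 0.11). These genes are near-identical in sequence and may share signal on the array. OPRK1, an opioid receptor, fell by 0.87, while CDH2, N-cadherin, rose from 12 and 4.9 to 47.1 and 48.6 (1.40 ± 0.15). CDH2 lay under the array medians in control cells and passed the filter through arrays of PRMT5 knockdown cells. Its difference was 2.48 with a pseudocount of 1 and 0.63 with 64. DDC, a decarboxylase of dopamine and serotonin synthesis, rose by 0.37. With fewer arrays, DDC did not pass without control array 2, knockdown array 1 or knockdown array 2. Lost too was the call for UGT2B15 without the probe sets that can match several transcripts. With fewer arrays the number of higher members was 1 without control array 2 or without knockdown array 1 or without knockdown array 2. Of 15 tested nuclear receptors and cofactors, 2 rose and 4 fell (median -0.076), near the shares over all genes tested. PGR, the progesterone receptor, fell from 59.8 and 61.8 to 6.5 and 10.0 (-1.67 ± 0.12), HOXB13, the homeobox factor of the prostate, from 698 and 725 to 516 and 506 (-0.47 ± 0.077), and the orphan receptor ESRRA by 0.31. FOXA1, the pioneer factor of luminal cells, did not pass (-0.17 ± 0.093, adjusted p = 0.18). The corepressor NRIP1 rose by 0.47 and PIAS2 by 0.30. In fits that lacked an array, ESRRA did not pass without control array 2, and PIAS2 did not pass without knockdown array 2. Depending on the arrays used, the number of higher members was 1 without knockdown array 2.

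The next list held ERG with other ETS factors, and genes reported to be higher with ERG. Of 30 tested members, 15 fell and 5 rose, with a median of -0.24. The 11 ETS factors held 5 decreases and 1 increase, and the 19 genes reported higher with ERG held 10 decreases and 4 increases. ERG itself fell (difference -0.40 ± 0.067 (SE), adjusted p = 0.001). F5, coagulation factor V, fell from 320.5 and 309.7 to 52.7 and 54.5 (-2.25 ± 0.11), and KCNH8, a potassium channel, from 412 and 417 to 74.2 and 76.5 (-2.24 ± 0.085). KHDRBS3, a splicing regulator, fell from 252 and 271 to 79.2 and 77.2 (-1.56 ± 0.09), and PLAT, the tissue plasminogen activator, from 38.8 and 43.7 to 9.2 and 5.3 (-1.30 ± 0.12). These decreases were larger than that of ERG. In the opposite direction, TFF1, a secreted mucosal peptide, rose from 37.5 and 40.6 to 105 and 96.7 (1.08 ± 0.11) and CXCR4, a chemokine receptor, from 43.9 and 36.2 to 90.0 and 108 (1.04 ± 0.12). FZD4, a Wnt receptor, rose by 0.56 and NCALD, a calcium sensor, by 0.51.

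Luminal markers rose more often than they fell. Of 17 tested, 8 rose and 3 fell (median 0.23), and all 3 luminal keratins rose. KRT19 went from 229 and 267.5 to 673 and 659 (1.37 ± 0.10), KRT8 from 229 and 222 to 314 and 342 (0.51 ± 0.081) and KRT18 from 1064 and 1122 to 1355 and 1394 (0.33 ± 0.08). PSCA, prostate stem cell antigen, rose by 0.78 and CLDN4, a tight junction protein, by 0.58. AMACR, the racemase used as a prostate cancer marker, fell from 454 and 469 to 172 and 157 (-1.40 ± 0.084), and ACP3, prostatic acid phosphatase, from 3245 and 3122 to 2046 and 2280 (-0.56 ± 0.06). Luminal markers therefore did not share a direction. On leaving out arrays, KRT18 did not pass without control array 1 or knockdown array 2. The number of higher members was 5 without control array 1.

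The next markers were those of basal and neuroendocrine cells. Of 4 tested basal markers, 0 rose and 2 fell, ITGA6 (-0.26 ± 0.052) and KRT14 (-0.43 ± 0.12), while CD44 (0.10 ± 0.082) and DST (0.03 ± 0.052) did not pass, and the basal keratin KRT5 was under the filter. With fewer arrays, KRT14 did not pass without control array 2, knockdown array 1 or knockdown array 2. Calls were also lost for ITGA6 with the mean over probe sets. Of 13 neuroendocrine genes, 2 rose and 5 fell (median -0.21). After RFX6, the lowest were NCAM1 (-0.74 ± 0.12), INSM1, a factor of endocrine precursors (-0.48 ± 0.065), and SCG2 (-0.44 ± 0.14). SYT4, a synaptotagmin, rose by 0.38, as did REST, the repressor of neuronal genes, by 0.30, although 1 of the other 2 REST probe sets was called lower. SCG2 did not pass without control array 1, knockdown array 1 or knockdown array 2, and REST did not pass without control array 2 or knockdown array 1. Under other settings the call was lost for SCG2 and REST with no filter on dim probe sets, and for REST with the mean over probe sets, and for REST with no intensity trend. With fewer arrays the number of higher members was 1 without control array 2 or without knockdown array 1.

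Of 22 stromal, endothelial and immune markers only 6 passed the filter, and 2 rose and 2 fell. LUM, lumican, rose from 468.5 and 428 to 943 and 1020 (1.10 ± 0.077), and LYZ, lysozyme, from 31.2 and 24.6 to 124 and 129.5 (1.70 ± 0.11). ACTA2, smooth muscle actin, fell from 129 and 141 to 22.9 and 19.8 (-2.02 ± 0.10), and FBN1, fibrillin, from 53.3 and 50.9 to 13.5 and 17.0 (-1.13 ± 0.11). COL1A1 (-0.16 ± 0.13) and MYH11 (-0.27 ± 0.13) did not pass. The collagen and fibroblast markers COL1A2, COL3A1, DCN, PDGFRA and PDGFRB and the leukocyte marker PTPRC were all under the filter in these cells. The 7 stromal markers summed to 488.2 to 522.4 in control and 1001.2 to 1078.0 in knockdown arrays, and LUM made up nearly all of both sums.

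TGF-beta and BMP genes rose at several levels of the pathway. In this pathway a ligand binds paired receptors, which phosphorylate SMAD factors that enter the nucleus, and inhibitors such as SMAD7 and SMAD6 feed back on the receptors. Of 51 members, 39 passed the filter, and of these 19 rose and 7 fell (median 0.19). Among 7 ligands 4 rose, with TGFB2 as given above, INHBA, an activin subunit, from 38.1 and 23.7 to 75.9 and 104 (1.18 ± 0.16), and GDF15 by 0.54. INHBB, another activin subunit named after its value was seen, rose by 1.13. GDF11 fell from 571 and 601.5 to 245 and 256 (-1.18 ± 0.073) and BMP2, at the background, by 0.54. The ligands thus split, with TGFB2, GDF15 and the activin subunits up and GDF11 and BMP2 down.

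Receptors and SMADs also split. Of 9 receptors 3 rose and 3 fell. The largest change was of TGFBR2, the type II TGF-beta receptor, from 13.8 and 14.7 to 47.5 and 49.9 (1.10 ± 0.11). TGFBR2 was named after its value was seen. It lay under the array medians in control cells and passed the filter through arrays of PRMT5 knockdown cells. Its difference was 1.70 with a pseudocount of 1 and 0.53 with 64. Of 8 SMADs 4 rose, among them SMAD6 (1.29 ± 0.11) and the BMP-activated factors SMAD1 (0.87 ± 0.067) and SMAD9 (0.64 ± 0.081), all 3 named after their values were seen. SMAD7, a feedback inhibitor of TGF-beta receptors, fell from 1995 and 1967 to 516 and 533.5 (difference -1.89 ± 0.059 (SE), adjusted p = 5.5e-09). The paired inhibitors SMAD6 and SMAD7 therefore moved in opposite directions. BAMBI, a pseudoreceptor that blocks signalling, rose from 28.3 and 19.8 to 91.3 and 81.4 (1.36 ± 0.14), and GREM1, a BMP antagonist, fell from 365 and 369 to 229 and 242.5 (-0.60 ± 0.072). All 4 ID genes rose, and ID genes are standard targets of BMP signalling. ID1 went from 123 and 147 to 722 and 744 (2.31 ± 0.093 (SE), adjusted p = 2.7e-08), ID3 rose by 1.49 and ID2, named after its value was seen, by 0.69. On removal of arrays the number of lower members was 4 without control array 1.

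**Figure D4:**
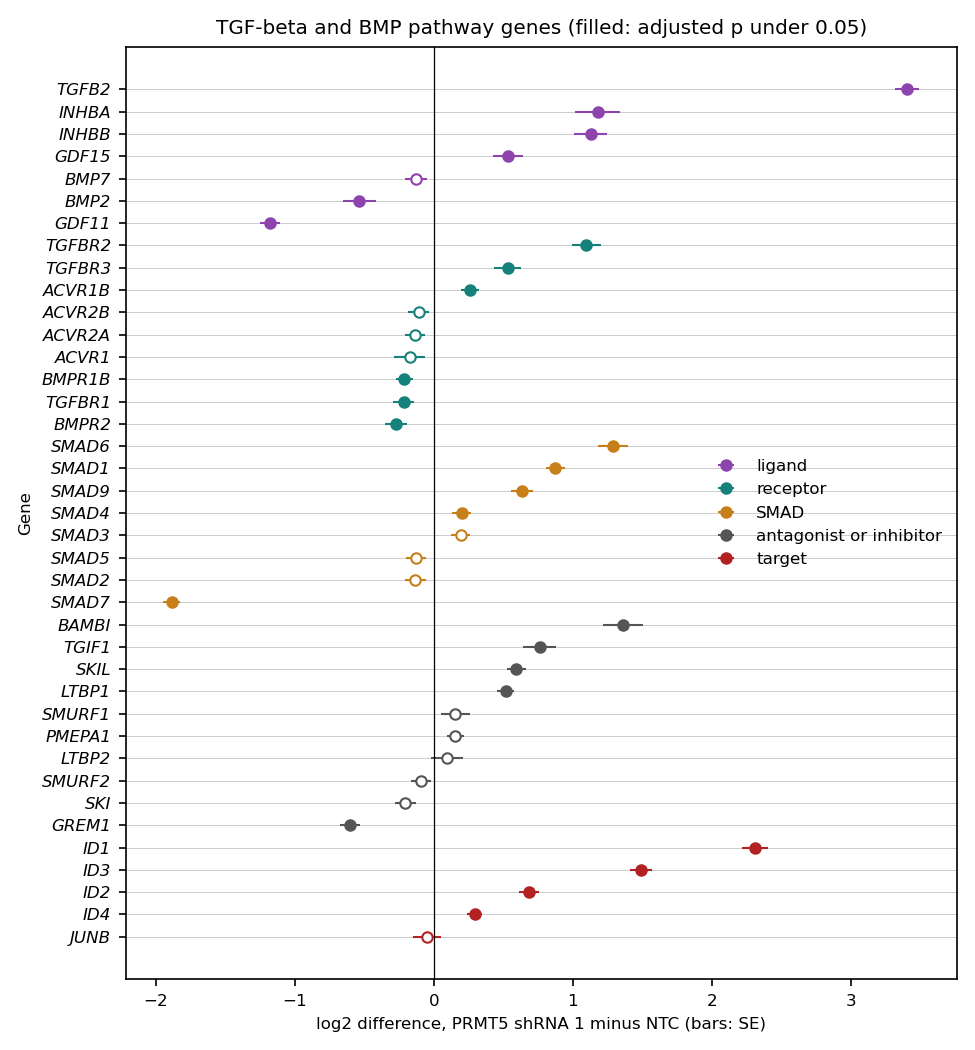
log2 difference of PRMT5 shRNA 1 minus NTC with its SE for the 39 tested TGF-beta and BMP genes, coloured by role and filled where called. TGFB2 (3.40) and ID1 (2.31) stand highest, SMAD7 (-1.89) stands lowest, and most receptors lie between -0.3 and 0.3.

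Growth factor receptors and feedback inhibitors of the ERK pathway moved both ways. Of 28 tested, 10 rose and 6 fell (median 0.042), and of the 4 kinases of the cascade itself 0 rose and 1 fell. Behind SPRY4, the highest members were KIT, from 6.9 and 6.5 to 33.1 and 32.2 (1.10 ± 0.14), ERBB3 (0.78 ± 0.089) and FGFR3 (0.73 ± 0.068), all receptor tyrosine kinases. KIT lay under the array medians in control cells and passed the filter through arrays of PRMT5 knockdown cells, and it gave 2.13 with a pseudocount of 1 and 0.45 with 64. HBEGF, an EGF receptor ligand, fell from 274 and 306 to 113 and 122 (-1.20 ± 0.091), FGFR1 from 247 and 232 to 108 and 106 (-1.05 ± 0.091), LRIG1 by 0.60 and DUSP4, an ERK phosphatase, by 0.48. FGFR1 and FGFR3 thus went in opposite directions. Immediate early genes, which respond to such signals within minutes, rose in 11 of 23 tested and fell in 1 (median 0.26). ATF3 went from 12.3 and 17.0 to 44.6 and 45.3 (1.00 ± 0.13), KLF4 from 117 and 104 to 219.9 and 219 (0.89 ± 0.093), ZFP36L1 by 0.81 and FOSL2 by 0.77. The member that fell was SRF (-0.21 ± 0.076), the factor that drives many of them. When an array was dropped, SRF did not pass with any 1 of the 4 arrays left out. Other settings ended the call for SRF with a pseudocount of 64, and for SRF with no filter on dim probe sets, and for SRF after quantile normalization, and for SRF with no intensity trend. The number of lower members was 0 on removal of any 1 of the 4 arrays.

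Hypoxia genes rose more often than they fell. The hypoxia-inducible factors HIF1A and EPAS1 (HIF-2 alpha) act mainly through protein stability and drive genes of blood vessel growth, glucose uptake and glycolysis. Of 46 tested, 26 rose and 5 fell (median 0.20). HIF1A itself was at 2379 and 2080 in control and 2381 and 2162 in knockdown arrays and did not pass (0.028 ± 0.07, adjusted p = 0.78). EPAS1 rose from 403 and 441 to 817 and 964 (difference 1.05 ± 0.10 (SE), adjusted p = 2.1e-05). ADM, the vasodilator adrenomedullin, rose from 125 and 138.5 to 321 and 335 (1.22 ± 0.082), PFKFB4, a regulator of glycolytic flux, from 209 and 207 to 444.5 and 431 (1.02 ± 0.07), and VEGFA from 883 and 778.5 to 1647 and 1730 (1.01 ± 0.10). Of 15 other hypoxia targets 12 rose and 0 fell, while the 23 genes of glucose transport and glycolysis held 10 increases and all 5 decreases. The decreases were led by SLC2A3, a glucose transporter (-0.73 ± 0.089), HK1 (-0.52 ± 0.07), PFKL (-0.43 ± 0.11) and ENO2 (-0.41 ± 0.085). PFKL did not pass without control array 2 or knockdown array 2. The call was lost as well for PFKL with the mean over probe sets. Across leave-one-out fits the number of higher members was 17 without control array 2 or without knockdown array 2.

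Many ATF4 targets rose, while ATF4 itself did not pass. ATF4 is translated under amino acid or folding stress and binds composite sites in genes of amino acid supply. Its level was 1966 and 2045 in control and 2086 and 2106 in knockdown arrays (0.064 ± 0.073, adjusted p = 0.52). Of 44 tested ATF4 and unfolded protein response genes, 19 rose and 6 fell (median 0.14). SLC7A11, the cystine transporter, rose from 137 and 135 to 547 and 506 (1.84 ± 0.092 (SE), adjusted p = 1.3e-07). DDIT4, an inhibitor of mTORC1 that hypoxia also induces, rose from 940.1 and 999.6 to 1884 and 2129 (1.03 ± 0.07). CHAC1, a glutathione-degrading enzyme, rose from 15.9 and 12.3 to 55.7 and 46.5 (1.16 ± 0.12), and ATF3 by 1.00. CHAC1 and ATF3 started from background levels and needed arrays of PRMT5 knockdown cells to pass the filter. With pseudocounts of 1 and 64 the difference was 1.79 and 0.56 for CHAC1 and 1.57 and 0.47 for ATF3. CBS, of cysteine synthesis, fell from 917 and 868 to 549.8 and 486 (-0.77 ± 0.09), ERN1, the stress sensor IRE1, by 0.65, the chaperone HYOU1 by 0.32 and CTH, also of cysteine synthesis, by 0.32. HSPA5, the main chaperone of the endoplasmic reticulum, fell slightly (-0.15 ± 0.051). On leaving out arrays, CTH and HSPA5 did not pass with any 1 of the 4 arrays left out. Under other settings the call was lost for CTH and HSPA5 with no filter on dim probe sets, and for HSPA5 with no intensity trend. On removal of arrays the number of higher members was 12 without knockdown array 2, and the number of lower members was 3 on removal of any 1 of the 4 arrays.

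Promoters of these lists were read for the letters of known response elements. RefSeq promoters (GRCh38.p14, 250 bases before to 50 after the start) were at hand for 10174 of the 12413 genes. The hypoxia core ACGTG, on either strand, was in 11 of 23 promoters of hypoxia genes that rose (47.8%), in 7 of 18 of the other tested members (38.9%), and in 27.0% of all promoters. The longer CACGTG, which contains it, was in 21.7%, 16.7% and 10.3%. The ATF4-type letters TGATGNAA were in 3 of 16 promoters of ATF4 list members that rose (18.8%), in 2 of 24 others (8.3%) and in 1.8% of all. The related TGACGTCA was in 0 of these 16 and in 3.3% of all promoters, and the common GC box GGGCGG in 73.9% of the hypoxia genes that rose, 56.2% of the ATF4 genes that rose and 69.5% of all. The 120-base stretches shown lie before the start site but do not share a position, since each was placed to hold a match. The match nearest the start begins 191 bases before it for ATF3, 209 for CHAC1 and 176 for HERPUD1. It begins 143 bases before the start for ANKRD37, 149 for BHLHE40 and 73 for LDHA. Matches to TGATGNAA are in capitals for the 3 ATF4 list genes that rose and hold it, and matches to ACGTG for 3 hypoxia genes chosen after their values were seen:
ATF3 (chr1:212565157-212565276, + strand): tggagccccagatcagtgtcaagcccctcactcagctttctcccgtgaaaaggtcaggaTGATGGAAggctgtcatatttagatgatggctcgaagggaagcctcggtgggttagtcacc
CHAC1 (chr15:40953221-40953340, + strand): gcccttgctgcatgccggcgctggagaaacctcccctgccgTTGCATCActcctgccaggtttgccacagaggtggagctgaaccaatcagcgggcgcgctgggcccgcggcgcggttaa
HERPUD1 (chr16:56931894-56932013, + strand): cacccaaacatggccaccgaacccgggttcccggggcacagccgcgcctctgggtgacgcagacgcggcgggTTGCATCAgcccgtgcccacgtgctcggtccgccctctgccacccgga
ANKRD37 (chr4:185396623-185396742, + strand): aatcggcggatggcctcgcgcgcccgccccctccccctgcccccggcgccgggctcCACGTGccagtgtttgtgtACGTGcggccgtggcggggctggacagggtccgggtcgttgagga
BHLHE40 (chr3:4979213-4979332, + strand): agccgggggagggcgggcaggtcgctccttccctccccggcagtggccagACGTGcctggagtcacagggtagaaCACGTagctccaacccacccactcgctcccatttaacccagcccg
LDHA (chr11:18394443-18394562, + strand): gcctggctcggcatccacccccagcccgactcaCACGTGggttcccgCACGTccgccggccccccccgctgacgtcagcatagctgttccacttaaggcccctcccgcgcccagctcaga

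In CHAC1 and HERPUD1 the same 8 letters, TTGCATCA, stand on the printed strand, the reverse complement of a TGATGNAA match, and ATF3 holds TGATGGAA. HERPUD1, a protein of endoplasmic reticulum degradation, rose from 736 and 755.5 to 990.0 and 956 (0.38 ± 0.058). ANKRD37, a small ankyrin-repeat protein, rose from 383 and 361 to 657 and 711 (0.85 ± 0.069), BHLHE40, a repressor of the clock and hypoxia response, from 173 and 193 to 358.5 and 347 (0.89 ± 0.093), and LDHA, lactate dehydrogenase A, from 2800 and 2930 to 3254 and 3404 (0.22 ± 0.051). After removal of an array, LDHA did not pass without control array 1 or knockdown array 2. Calls were also lost for HERPUD1 without the probe sets that can match several transcripts. ADM, EPAS1 and PFKFB4, which had larger increases, hold no ACGTG from 250 bases before to 50 after the start. A match is a description of the sequence and not a measured binding site.

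Genes that load amino acids onto transfer RNA fell or did not pass. Of 32 tested aminoacyl-tRNA synthetases, 0 rose and 16 fell (median -0.23), 6 of 17 cytosolic and 10 of 15 mitochondrial. NARS2 went from 705 and 653 to 445 and 493 (-0.52 ± 0.078), HARS1 from 392 and 413 to 303 and 266 (-0.48 ± 0.08), RARS1 from 643 and 658.5 to 434 and 324 (-0.77 ± 0.19) and SARS2 from 83.0 and 91.7 to 64.1 and 47.4 (-0.54 ± 0.12). The knockdown arrays of RARS1 lay apart from each other. In fits that lacked an array, RARS1 and SARS2 did not pass without knockdown array 2. In this list the number of lower members was 8 without knockdown array 2. Of 19 amino acid and peptide transporters, 7 rose and 7 fell (median -0.033). Next to SLC15A2 and SLC7A11, the peptide transporter SLC15A1 (0.95 ± 0.12) and SLC7A5, of the large neutral amino acid carrier (0.94 ± 0.12, from under the array medians), rose. SLC7A5 passed the filter through arrays of PRMT5 knockdown cells, and gave 2.11 with a pseudocount of 1 and 0.36 with 64. SLC43A1 (-0.55 ± 0.092), SLC1A1 (-0.50 ± 0.10), SLC7A6 (-0.38 ± 0.065) and SLC1A4 (-0.35 ± 0.078) fell, and the direction of SLC1A4 turned without the probe sets that can match several transcripts. On leaving out arrays, SLC1A4 did not pass without knockdown array 2. The call was lost as well for SLC1A4 with the mean over probe sets, and for SLC1A4 without the probe sets that can match several transcripts. For these genes the number of lower members was 4 without knockdown array 2.

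Genes of ribosome production that were called were mostly lower. Of 45 tested, 16 fell and 2 rose (median -0.15), 5 of 11 genes of RNA polymerase I and its factors among the decreases. NAT10, an RNA acetyltransferase of the nucleolus, fell from 348 and 360.2 to 190.1 and 173.5 (-0.90 ± 0.08), NOP2, an RNA methyltransferase, from 442 and 382 to 255 and 216.5 (-0.77 ± 0.10), RRP12 by 0.64 and POLR1A, the large subunit of RNA polymerase I, by 0.49. RRN3, the initiation factor of that polymerase, rose from 1016 and 1008 to 1294 and 1268 (0.33 ± 0.055), and EMG1 by 0.22. After removal of an array, EMG1 did not pass without control array 1 or knockdown array 1. Under other settings the call was lost for EMG1 with no filter on dim probe sets, and for EMG1 with no intensity trend. Depending on the arrays used, the number of higher members was 1 without control array 1.

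Cell cycle genes that were called were mostly lower, by modest amounts. Of 50 tested G1/S and replication genes, 18 fell and 2 rose (median -0.13). CDCA7 went from 729 and 748 to 448 and 413 (-0.76 ± 0.07), CDC25A, an activator of CDK2, from 945 and 984 to 660.0 and 604 (-0.60 ± 0.068), and the replicative helicase subunits MCM3 and MCM2 fell by 0.54 and 0.53. MCM4, of the same helicase, rose from 1067 and 1246 to 1531 and 1468 (0.37 ± 0.073), as did E2F7, a repressor of E2F genes, by 0.36, while E2F1 did not pass (0.18 ± 0.067). On the probe sets read, members of the helicase moved apart. Of the other 3 kept MCM4 probe sets, 2 had the same sign and 0 were called. With an array removed, E2F7 did not pass without control array 2 or knockdown array 2. Calls were also lost for CDCA7 without the probe sets that can match several transcripts. In this list the number of higher members was 1 without control array 2, and the number of lower members was 11 without knockdown array 2.

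Of 51 tested G2/M genes, 16 fell and 5 rose (median -0.10). FOXM1, the factor that drives mitotic genes, fell from 1022 and 1010 to 706 and 664 (-0.56 ± 0.062), followed by CDC25B (-0.46 ± 0.063), MYBL2 (-0.41 ± 0.10) and CENPF (-0.41 ± 0.071). MKI67, the proliferation marker Ki-67, fell by 0.37 from 345 and 266 to 253 and 209.6. INCENP (0.36 ± 0.11) and AURKB (0.35 ± 0.074), which form the chromosomal passenger complex, rose, as did the centromere histone CENPA (0.28 ± 0.092) and SPC25 (0.23 ± 0.081). With fewer arrays, INCENP, CENPA and SPC25 did not pass with any 1 of the 4 arrays left out, and MKI67 did not pass without control array 1 or knockdown array 2. Lost too was the call for MKI67, CENPA and SPC25 with no filter on dim probe sets, and for MKI67 after quantile normalization, and for MKI67 and SPC25 with no intensity trend. For these genes the number of higher members was 1 without control array 1 or without knockdown array 1 or without knockdown array 2 and 2 without control array 2, and the number of lower members was 10 without control array 1 or without control array 2 and 9 without knockdown array 2.

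Cell cycle inhibitors and p53 targets were read next. Of 12 tested inhibitors and G1 cyclins, 3 rose and 1 fell (median 0.085). CDKN1A, the CDK inhibitor p21, was at 459.5 and 412 in control and 441 and 445 in knockdown arrays and did not pass (0.025 ± 0.10, adjusted p = 0.86). CDKN1C (0.42 ± 0.11), CDKN2B (0.36 ± 0.13) and CCND1, cyclin D1 (0.19 ± 0.058), rose, and RBL1, a pocket protein, fell (-0.32 ± 0.071). CDKN2B, at 10 and 9.4, lay under the array medians in control cells and passed the filter through arrays of PRMT5 knockdown cells. In fits that lacked an array, CDKN2B did not pass with any 1 of the 4 arrays left out, and CCND1 did not pass without control array 1, control array 2 or knockdown array 1, and CDKN1C did not pass without control array 2 or knockdown array 1, and RBL1 did not pass without control array 1. Other settings ended the call for CDKN2B with a pseudocount of 64, and for CDKN2B with no filter on dim probe sets, and for CDKN2B after quantile normalization, and for CCND1 with no intensity trend. Depending on the arrays used, the number of higher members was 1 without control array 1 and 0 without control array 2 or without knockdown array 1, and the number of lower members was 0 without control array 1. Of 24 tested p53 pathway genes, 6 rose and 3 fell (median 0.11). PLK2, a kinase of the stress response, rose from 124 and 144 to 357 and 352 (1.31 ± 0.10), and PMAIP1, the death protein NOXA, by 0.55. FAS, the death receptor, fell from 1172 and 1192 to 545 and 487 (-1.17 ± 0.07), and GADD45A by 0.50.

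Genes of homologous recombination and the Fanconi pathway fell in 12 and rose in 5 of 30 tested (median -0.19). RAD51D fell from 356 and 253.5 to 182 and 200.5 (-0.61 ± 0.13), SLX4, a nuclease scaffold, by 0.46, and XRCC3 by 0.45. RAD54B rose from 563 and 596 to 783 and 769.5 (0.41 ± 0.063), NBN, of the complex that senses breaks, by 0.32, and RAD51B by 0.35. RAD51B and RAD51D thus moved in opposite directions. When an array was dropped, XRCC3 did not pass without control array 1, control array 2 or knockdown array 2, and SLX4 did not pass without control array 2 or knockdown array 1, and RAD51B did not pass without control array 2 or knockdown array 2. The call was lost as well for XRCC3 and RAD51B with no filter on dim probe sets, and for RAD51B with the mean over probe sets. In this list the number of higher members was 2 without control array 2 or without knockdown array 2 and 3 without knockdown array 1, and the number of lower members was 6 without control array 2.

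Lipid synthesis, respiration and autophagy showed no common direction. Of 36 genes of cholesterol and fatty acid synthesis, 12 rose and 8 fell (median 0.016). SC5D, a late enzyme of cholesterol synthesis, rose from 839 and 794 to 1352 and 1583 (0.83 ± 0.075) and FADS2, at the background, by 0.63. FADS2 lay under the array medians in control cells and passed the filter through arrays of PRMT5 knockdown cells. Its difference was 1.46 with a pseudocount of 1 and 0.23 with 64. FASN, fatty acid synthase, fell from 212 and 199 to 142 and 134 (-0.52 ± 0.085), and ACSS2 by 0.52. Of 47 respiratory chain subunits, 4 rose and 2 fell (median 0.09), well under the background shares in both directions. The extremes were NDUFB6 (0.37 ± 0.065) and UQCRC2 (-0.23 ± 0.057), and 1 of the other 2 kept probe sets of UQCRC2 was called higher. UQCRC2 did not pass without control array 2 or knockdown array 2. Under other settings the call was lost for UQCRC2 with the mean over probe sets. For these genes the number of higher members was 2 without control array 1 or without control array 2 or without knockdown array 1 and 1 without knockdown array 2, and the number of lower members was 1 without control array 1 or without knockdown array 1 and 0 without control array 2 or without knockdown array 2. Of 41 autophagy and lysosome genes, 10 rose and 7 fell (median 0.025). ATG7, the activating enzyme of autophagosome formation, rose from 365 and 396 to 630.0 and 622 (0.70 ± 0.07) and WIPI1 by 0.40. ATG2B, a lipid transfer protein of the same process, fell by 0.54 and ATG2A by 0.47. On leaving out arrays, WIPI1 did not pass without control array 1 or knockdown array 2. On removal of arrays the number of higher members was 3 without control array 1 or without knockdown array 2 and 4 without control array 2 or without knockdown array 1, and the number of lower members was 3 without control array 2 or without knockdown array 2.

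Interferon-induced chemokines fell while other interferon genes split. Of 32 tested interferon and antigen presentation genes, 10 rose and 4 fell (median 0.13), 6 of 10 antigen presentation genes among the increases. PSMB9, an immunoproteasome subunit, rose from 20.9 and 26.7 to 79.0 and 62.3 (1.12 ± 0.14), SAMD9 by 0.62, PARP14 by 0.52 and HLA-B by 0.49. IRF7, a driver of interferon genes, fell from 139 and 139 to 73.7 and 74.3 (-0.79 ± 0.12), and OAS3, an antiviral RNA sensor, from 455 and 422 to 276 and 254 (-0.69 ± 0.084). Depending on the arrays used, the number of lower members was 2 without control array 1 or without knockdown array 2. Of 17 chemokines, cytokines and receptors, 7 rose and 6 fell (median 0.0063). CXCL9, CXCL10 and CXCL11, neighbouring chemokine genes that act on CXCR3, all fell, CXCL10 from 129 and 130.3 to 54.5 and 49.3 (-1.10 ± 0.10) and CXCL9 from 30.6 and 36.1 to 7.8 and 5.4 (-1.13 ± 0.12). CXCL8 (0.53 ± 0.12) and IL1RAP (0.56 ± 0.11) rose. Among these members the number of higher members was 4 without knockdown array 2.

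Matrix genes held large changes in both directions. Of 35 tested, 6 rose and 11 fell (median -0.07), and of 9 integrins 0 rose and 3 fell. FBLN2, fibulin 2, rose from 142 and 144 to 882 and 779.7 (2.41 ± 0.079), LOX, a collagen crosslinking enzyme, by 0.81, and FBN2 by 0.78. TNC, tenascin C, fell from 90.0 and 80.7 to 19.3 and 20.8 (-1.49 ± 0.11), and ITGA1, a collagen-binding integrin, from 79.3 and 89.7 to 31.4 and 23.4 (-1.22 ± 0.12). FBN1 and FBN2, closely related fibrillins, moved apart.

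All histone methyltransferases that were called were lower. Of 27 histone methyltransferases 0 rose and 10 fell, and of 16 demethylases 4 rose and 1 fell, so the histone methylation list held 4 increases and 11 decreases in 43 genes (median -0.06). NSD1, which writes H3K36 methylation, fell from 191 and 189 to 125 and 115 (-0.60 ± 0.087), KMT2B by 0.51, SETDB1 by 0.45 and EHMT2 by 0.39. KDM7A, a demethylase, rose from 229 and 256 to 534 and 466 (1.00 ± 0.088), and KDM3A, also a hypoxia target, by 0.48. KDM5B (0.27 ± 0.062) and KDM4B (0.27 ± 0.063) rose as well, but turned direction without the probe sets that can match several transcripts. EHMT2 did not pass without control array 1, control array 2 or knockdown array 2, and KDM4B did not pass without control array 2 or knockdown array 2, and KMT2B did not pass without knockdown array 2. The call was lost as well for NSD1, SETDB1, KDM5B and KDM4B with the mean over probe sets, and for EHMT2 with no filter on dim probe sets, and for KDM5B and KDM4B without the probe sets that can match several transcripts. Here the number of lower members was 6 without control array 1 or without knockdown array 2 and 7 without control array 2.

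Of 9 class II deacetylases and MEF2 factors, 1 rose and 4 fell (median -0.21). Behind HDAC9 were HDAC4 (-0.41 ± 0.061), its close relative, and HDAC10 (-0.42 ± 0.13). MEF2C, a muscle and neuron factor that class IIa deacetylases repress, was at 7.7 and 10.4 in control and 18.3 and 16.4 in knockdown arrays (0.41 ± 0.12), near the array medians. It passed the filter through arrays of PRMT5 knockdown cells, and gave 0.88 with a pseudocount of 1 and 0.16 with 64. MEF2A fell by 0.21, and its direction turned with the mean over probe sets. On leaving out arrays, MEF2A did not pass with any 1 of the 4 arrays left out, and HDAC10 and MEF2C did not pass without control array 1, knockdown array 1 or knockdown array 2. Under other settings the call was lost for MEF2A with the mean over probe sets, and for MEF2A with no intensity trend. With fewer arrays the number of higher members was 0 without control array 1 or without knockdown array 1 or without knockdown array 2, and the number of lower members was 2 without control array 1 or without knockdown array 1 or without knockdown array 2. Of 12 genes of RNA interference, which hairpins pass through, 2 rose and 3 fell (median -0.046). DROSHA, the nuclear processing enzyme, fell from 979 and 1006 to 749.7 and 689.6 (-0.46 ± 0.063), the export factor XPO5 by 0.43 and PRKRA by 0.27. AGO4, an argonaute protein, rose from 277 and 315 to 616 and 629.8 (1.04 ± 0.076) and DICER1 by 0.23. After removal of an array, PRKRA did not pass without control array 1, control array 2 or knockdown array 1, and DICER1 did not pass without control array 2 or knockdown array 1. Calls were also lost for PRKRA with the mean over probe sets, and for PRKRA without the probe sets that can match several transcripts. Among these members the number of higher members was 1 without control array 2 or without knockdown array 1.

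The contrast between the PRMT5 hairpins, which uses no control array, shows where PRMT5 shRNA 1 differed from PRMT5 shRNA 2. It called 3192 genes (25.7%), 916 higher and 2276 lower with PRMT5 shRNA 1, with a median size of 0.37 among them, and 18 genes differed at least 2-fold. Called genes numbered 1726 without knockdown array 1 and 1333 without knockdown array 2, and without an array of PRMT5 shRNA 2 they were 2773 and 2017. Of the 3192, 2153 were also called against the control hairpin, beside 4879 (39.3%) of all 12413 genes. Both contrasts use the same PRMT5 shRNA 1 arrays and the same estimate of spread, so part of this overlap is built in. PRMT5 RNA also differed between these groups, so hairpin sequence and depth of knockdown cannot be told apart. The 3' to 5' ratio of ACTB differed too. It was 3.49 and 3.88 with PRMT5 shRNA 1 and 5.72 and 5 with PRMT5 shRNA 2. The part of this ratio in the contrast was not tested.

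Genes higher with PRMT5 shRNA 1 were led by TLE4, a Groucho-type corepressor. TLE4 was read at 60.1 and 39.5 in control arrays, 204 and 229.7 with PRMT5 shRNA 1 and 77.8 and 75.9 with PRMT5 shRNA 2 (difference between hairpins 1.32 ± 0.14 SE, adjusted p = 3.1e-04). INHBA was at 38.1 and 23.7, 75.9 and 104 and 27.0 and 25.9 (1.30 ± 0.16), so its increase was seen with PRMT5 shRNA 1 and the arrays of PRMT5 shRNA 2 lay within the control range. OSR1, a zinc finger factor of kidney development, was at 17.8 and 19.1, 98.4 and 83.8 and 39.3 and 30.0 (1.08 ± 0.12). MUCL1, a small secreted mucin-like protein, was at 39.2 and 41.3, 139.6 and 132.5 and 63.1 and 53.4 (1.04 ± 0.10). TGFB2 read 271 and 297 with PRMT5 shRNA 2, 1.03 ± 0.089 apart on the log2 scale from PRMT5 shRNA 1. The TGFB2 arrays of PRMT5 shRNA 2 lay between those of the other groups. ZNF90, a zinc finger gene, was at 33.0 and 43.4, 57.7 and 68.7 and 24.8 and 21.6 (1.01 ± 0.13). Against the control hairpin, ZNF90 did not pass without control array 1 or knockdown array 2.

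Genes lower with PRMT5 shRNA 1 included several that PRMT5 shRNA 2 left near or above the control level. PLXNB2, a semaphorin receptor, was at 160.4 and 137 in control arrays, 76.6 and 77.4 with PRMT5 shRNA 1 and 185 and 215.5 with PRMT5 shRNA 2 (difference between hairpins -1.21 ± 0.11 SE, adjusted p = 1.5e-04). RASSF5, a Ras effector, was at 394 and 378, 172 and 158 and 392 and 408.5 (-1.20 ± 0.077). NXPE3 was at 239 and 219, 124 and 119 and 301.5 and 259 (-1.10 ± 0.095). In these genes the knockdown arrays of PRMT5 shRNA 1 stood alone below the other 4 arrays. ACOX2, a peroxisomal oxidase, was at 80.6 and 78.2, 57.6 and 61.1 and 132 and 152 (-1.06 ± 0.10), and the arrays of each PRMT5 hairpin lay on opposite sides of the control arrays. NPY6R read 319 and 335 with PRMT5 shRNA 2 (-1.08 ± 0.075). With an array removed, ACOX2 did not pass with any 1 of the 4 arrays left out. Lost too was the call for PLXNB2 without the probe sets that can match several transcripts, and for NXPE3 with the mean over probe sets. A pair of genes with larger differences between hairpins than some of these did not pass against the control hairpin. BMS1P20, a pseudogene chosen after its values were seen, was at 609 and 582, 629 and 779.6 and 345 and 297 (difference between hairpins 1.09 ± 0.10 SE, adjusted p = 2.1e-04). CDKN1A was at 1025 and 825 with PRMT5 shRNA 2 (difference between hairpins -1.03 ± 0.10 SE, adjusted p = 2.1e-04).

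**Figure D5:**
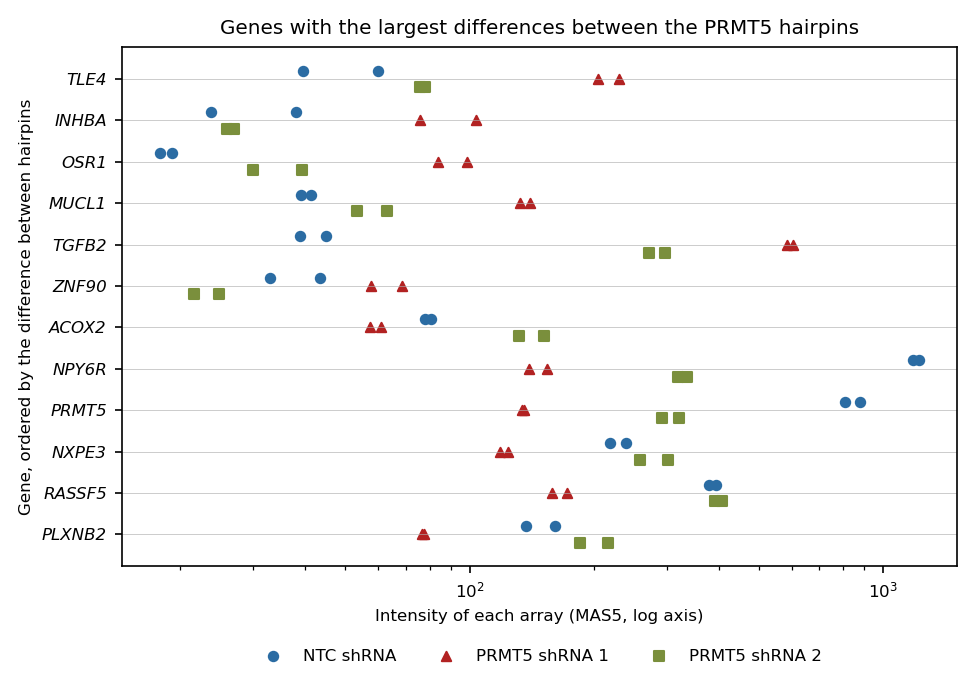
Intensity of each array (MAS5, log axis) for the 6 genes with the highest and the 6 with the lowest difference between the PRMT5 hairpins, among genes called both there and against the control hairpin, circles for NTC shRNA, triangles for PRMT5 shRNA 1 and squares for PRMT5 shRNA 2. For TGFB2, PRMT5 and NPY6R the squares lie between circles and triangles, for PLXNB2, RASSF5 and NXPE3 the triangles lie alone on the left, and for ACOX2 and ZNF90 the triangles and squares lie on opposite sides of the circles.

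Several of the strongest changes showed no called difference between the hairpins. Of the 24 genes with the most extreme differences from the control hairpin, 14 differed between hairpins and 10 did not pass. Over all genes tested 25.7% differed, and both contrasts use the same PRMT5 shRNA 1 arrays. RFX6 read 12.4 and 21.4 with PRMT5 shRNA 2, with a difference between hairpins of -0.30 ± 0.14 (adjusted p = 0.13). HDAC9 read 19.8 and 24.1 (0.14 ± 0.10, adjusted p = 0.34), and ESRRG 27.8 and 24.6 (-0.064 ± 0.12, adjusted p = 0.74). KLK3 read 2674 and 2465 (0.032 ± 0.056, adjusted p = 0.7), and IGFBP3 1948 and 1933 (-0.024 ± 0.053, adjusted p = 0.77). For these genes the SE of the difference was 0.05 to 0.14, and a p that misses the threshold does not show that the hairpins acted alike.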

How the data were processed

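RNA of 6 VCaP samples was amplified, labelled with biotin and read on Affymetrix arrays, 1 array a sample, as the labels' protocols state. The deposited table holds intensity values on a linear scale from the authors, who used MAS5 per the submitters' processing notes, and each array was scaled to a trimmed mean of 150.01 to 150.02 as the values show. Rounds of amplification and scaling can compress or shift differences that concern most genes.

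Of 54675 probe sets, 62 were controls, 41091 had 1 gene symbol in the platform annotation, 1801 several and 11721 none, and 41037 matched a current gene by identifier with 0 symbols changed. Probe sets with 1 symbol that reached the array median in at least 2 of 6 arrays were kept, and the brightest stood for its gene. limma 3.58.1 (R 4.3.3) was fitted to log2(intensity + 16) with 1 coefficient for each of the 3 groups and an intensity trend, with 3 residual and 7.89 prior degrees of freedom. All tests were two-sided, and p-values were Benjamini-Hochberg adjusted over all 12413 genes. The steps were tested on simulated data. Precision is limited by having 2 arrays a group, with a median replicate SD of 0.081 on the log2 scale.

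Named genes were PRMT5 and the given markers, the 12 highest and 12 lowest differences, the 6 highest and 6 lowest with a control intensity of at least 500, up to 4 of the highest and lowest called members of each list with its main regulators, and the 6 highest and 6 lowest differences between hairpins among genes called in both contrasts. The sets of 12, and those of 6 with a bright control, were drawn from called genes whose knockdown arrays did not overlap the control arrays. Further names are said in the text to be chosen after their values were seen, as are KRT8 and KRT18. The members and lists were chosen with earlier results of these data known. Alternatives were 2 pseudocounts (1 and 64), filters, probe set rules, quantile normalization, fits on 4 arrays or with a replicate block, and leaving out each array. Hairpin sequences were not used here, and the aligned genome build of the probes is not given in the sources used here, so no coordinates are given for array values.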

Additional observations from a re-analysis of the deposited data

Results flagged for a closer look

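The values below, in log2 units as PRMT5 shRNA 1 minus PRMT5 shRNA 2, come from the direct contrast between the hairpins (limma, adjusted p under 0.05), which called 3192 of the 12413 genes. Each gene named in the text that passed this test is given with its value. The part of hairpin sequence and of the remaining PRMT5 in these differences cannot be told apart, and that of the ACTB ratio was not tested.

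The first were genes that rose against the control hairpin. With PRMT5 shRNA 2 some of them, such as PTBP2, lay near or below the control level. All read higher with PRMT5 shRNA 1 than with PRMT5 shRNA 2. The difference was 1.32 for TLE4, 1.30 for INHBA, 1.08 for OSR1, 1.04 for MUCL1, 1.03 for TGFB2, 1.01 for ZNF90, 1.01 for SPRY4-IT1 and 0.88 for EAF2. Next in size, it was 0.73 for LYZ, 0.66 for CSTA, 0.64 for ZFP36L1, 0.63 for TFF1, 0.63 for S100P, 0.62 for CHAC1, 0.60 for PTGER4 and 0.59 for SPRY4. It was then 0.59 for FOSL2, 0.57 for ATG7, 0.55 for AGO4, 0.55 for PTBP2, 0.54 for INCENP, 0.52 for MCM4, 0.52 for FBN2 and 0.50 for SLC7A11. Smaller differences followed, with 0.50 for DDC, 0.50 for SMAD1, 0.48 for RRN3, 0.47 for LUM, 0.46 for REG4, 0.46 for ID1, 0.45 for CXCL8 and 0.43 for SLC7A5. After these it was 0.43 for BASP1, 0.43 for PPARG, 0.43 for IL1RAP, 0.42 for CENPA, 0.41 for VEGFA, 0.40 for AURKB, 0.38 for NTS and 0.38 for E2F7. Further values were 0.36 for HNRNPL, 0.33 for STEAP4, 0.32 for ID3, 0.31 for DAPK1, 0.30 for SLC15A2, 0.30 for KDM7A, 0.29 for REST and 0.28 for PLA2G2A. Below them it was 0.28 for EMG1, 0.28 for NDUFB6, 0.28 for LSM7, 0.28 for RAD54B, 0.27 for CAPRIN2, 0.25 for FXYD3, 0.25 for DICER1 and 0.25 for LSM8. Values then stood at 0.23 for LSM5, 0.21 for NBN, 0.21 for SYT4 and 0.19 for CCND1.

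Other named genes rose against the control hairpin but read lower with PRMT5 shRNA 1 than with PRMT5 shRNA 2. The difference was -0.64 for SAMD9, -0.45 for FBLN2, -0.43 for SMAD6, -0.29 for XK, -0.26 for PFKFB4, -0.23 for ANKRD37 and -0.23 for NCALD.

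Other named genes fell against the control hairpin. With PRMT5 shRNA 2 some of them, such as ACOX2, lay near or above the control level. All read lower with PRMT5 shRNA 1 than with PRMT5 shRNA 2. The difference was -1.21 for PLXNB2, -1.20 for RASSF5, -1.10 for NXPE3, -1.09 for PRMT5, -1.08 for NPY6R, -1.06 for ACOX2, -0.89 for NAT10 and -0.84 for CXCL11. Next in size, it was -0.83 for ACTA2, -0.79 for GREM1, -0.78 for ITGA1, -0.78 for GDA, -0.76 for ART3, -0.74 for PROCR, -0.73 for DEPDC7 and -0.73 for HBEGF. It was then -0.72 for SLC2A3, -0.72 for RARS1, -0.71 for SF3A3, -0.69 for F5, -0.68 for UGT2B28, -0.66 for CBS, -0.65 for UGT2B15 and -0.64 for PLCB4. Smaller differences followed, with -0.64 for GLRB, -0.62 for SLC1A1, -0.60 for IL1RAPL1, -0.59 for CNTNAP2, -0.58 for PDGFC, -0.58 for ACSS2, -0.57 for IRF7 and -0.57 for ATG2A. After these it was -0.57 for ERN1, -0.57 for KRT14, -0.57 for OAS3, -0.51 for GEMIN4, -0.51 for PFKL, -0.48 for ST6GAL1, -0.47 for PLAT and -0.46 for MCM3. Further values were -0.45 for VDR, -0.45 for ENO2, -0.44 for NRCAM, -0.44 for KCNH8, -0.43 for HARS1, -0.40 for PRMT2, -0.40 for NCAM1 and -0.40 for CDCA7. Below them it was -0.39 for LINC00294, -0.39 for PRKCA, -0.38 for COPRS, -0.38 for ERG, -0.38 for SLC43A1, -0.38 for FAS, -0.37 for RIOK1 and -0.37 for HOXB13. Values then stood at -0.37 for HK1, -0.36 for UGT2B17, -0.36 for CAMKK2, -0.36 for NOP2, -0.34 for ACP3, -0.34 for SETDB1, -0.34 for NARS2 and -0.34 for POLR1A. The next were -0.32 for HGF, -0.32 for MCM2, -0.30 for XPO5, -0.30 for FOXM1, -0.30 for PRKRA, -0.28 for SAMD5, -0.28 for GADD45A and -0.27 for HSPA5. Closer to the threshold it was -0.26 for DROSHA, -0.25 for PRPF8, -0.25 for ATG2B, -0.25 for HYOU1, -0.24 for GDF11, -0.23 for RBFOX2, -0.22 for CENPF and -0.22 for MGP.

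Other named genes fell against the control hairpin but read higher with PRMT5 shRNA 1 than with PRMT5 shRNA 2. The difference was 0.65 for AMACR, 0.61 for OPRK1 and 0.26 for SMAD7.

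Other named genes did not pass against the control hairpin but differed between the hairpins. The difference was 1.09 for BMS1P20, -1.03 for CDKN1A, -0.54 for COL1A1, 0.22 for PRMT1 and 0.20 for E2F1.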

How the results depend on the processing

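On leaving out each array in turn, the genes called against the control hairpin ranged from 3180 to 5283, the higher ones from 1327 to 2201, the lower ones from 1818 to 3082, and the genes that differed between hairpins from 1333 to 2808. Calls numbered 4296 with no filter on dim probe sets (19775 genes tested), 3909 without the probe sets that can match several transcripts, and 4916 after quantile normalization, and PRMT5 kept its direction and call in every setting tried. Replicate numbers did not pair the samples, since deviations of arrays with the same number correlated at -0.09, -0.18 and -0.0045. With the replicate block 4559 genes were called, 1862 higher and 2697 lower, and 2829 differed between hairpins, while PRMT5 stood at -2.51. Of the 280 genes named, 213 kept their side of the threshold, with no called value changing sign, in every one of the 16 settings that tested them. Of the named genes that did not pass, 8 changed sign in at least 1 setting. The replicate block ended the call of CENPA, FKBP5, HSPA5, SPC25 and SRF. Without the probe sets that can match several transcripts the difference was -0.0010 for KDM4B, -0.28 for KDM5B, -0.13 for LSM5 and 0.034 for SLC1A4, and with the mean over probe sets -0.27 for LSM8 and 0.042 for MEF2A, each of opposite sign to the value in the text because another probe set was read. Genes near the array medians have signal close to background, and their values limit what can be said of levels.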

Other observations

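Genes outside the lists and the named sets, chosen after their values were seen, included epithelial and secretory genes with large increases. REG4, a secreted lectin of gut epithelium, went from 311 and 334 in control arrays to 1524 and 1569 in knockdown arrays (log2 difference 2.21 ± 0.083), and NTS, the peptide neurotensin, from 2.4 and 1.7 to 86.7 and 92.5 (2.55 ± 0.11). PLA2G2A, a secreted phospholipase, went from 309 and 313 to 1745 and 1943 (2.51 ± 0.077), and CSTA, a protease inhibitor of epidermis, from 103.5 and 91.2 to 611 and 619.9 (2.48 ± 0.11). S100P, a calcium-binding protein, went from 51.5 and 62.7 to 269 and 273 (1.98 ± 0.10), and CRABP2, a retinoic acid carrier, from 24.6 and 24.8 to 126 and 103 (1.67 ± 0.12). The nuclear receptor PPARG went from 3.8 and 6.5 to 86.8 and 86.5 (2.28 ± 0.11). NTS and PPARG lay under the array medians in control cells, so they passed the filter through arrays of PRMT5 knockdown cells. With pseudocounts of 1 and 64 the difference was 4.90 and 1.22 for NTS and 3.87 and 1.12 for PPARG. SCGB1D2, a secretoglobin, went from 167 and 139 to 521 and 514.5 (1.66 ± 0.088), and FXYD3, a regulator of the sodium pump, from 404 and 445 to 1544 and 1539 (1.82 ± 0.063). In each of these genes the control and knockdown arrays did not overlap.

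Further changes, also chosen after their values were seen, concerned channels, junctions and nuclear receptors. CFTR, the chloride channel, went from 50.6 and 58.0 to 7.5 and 8.8 (-1.54 ± 0.12), and CLDN1, a tight junction protein, from 60.3 and 66.7 to 12.7 and 10.3 (-1.53 ± 0.12). VDR, the vitamin D receptor, went from 377 and 419 to 140.1 and 130.1 (-1.45 ± 0.086), and NR5A2, an orphan nuclear receptor, from 221 and 231 to 50.3 and 50.1 (-1.87 ± 0.094). KCNG3, a potassium channel subunit, went from 172 and 172 to 27.4 and 19.7 (-2.26 ± 0.12), and CAMK1D, a calcium-regulated kinase, from 364 and 336 to 71.5 and 68.6 (-2.09 ± 0.10).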
